A study of Homo sapiens with 12 samples.

Results

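The 7 genes GAL, TBC1D30, C17orf75, KCNG1, NME7, DDN and TERT were followed across the human acute myeloid cell lines MOLM-14 and KG-1 after ASLAN003 or its solvent DMSO. They were picked by name from 13881 genes in the deposited table, because earlier results of these data had them lower after ASLAN003 in MOLM-14, in some cases in KG-1 too, and in no pathway list used there. Their changes with ASLAN003 are therefore given as a description, with no test. All 7 were among the 13353 genes tested, which reached at least 1 FPKM (a fragment number corrected for the length of the transcript and the depth of sequencing) in at least 3 libraries.

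The genes have separate textbook roles. GAL encodes galanin, a secreted neuropeptide that acts through the G protein-coupled receptors GALR1, GALR2 and GALR3. TERT is the reverse transcriptase of telomerase, which adds telomere repeats and is usually silent in differentiated cells and active in leukaemic and stem cells. NME7 belongs to the nucleoside diphosphate kinase family and associates with the gamma-tubulin ring complex, from which microtubules grow. TBC1D30 is a GTPase-activating protein of RAB8, a small GTPase of vesicle traffic. C17orf75 encodes a subunit of the WDR11 complex, which with FAM91A1 captures vesicles at the trans-Golgi network. KCNG1 encodes Kv6.1, a silent potassium channel subunit that acts by joining other Kv subunits. DDN encodes dendrin, known from neuronal dendrites and kidney podocytes.

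There were 4 groups of 3 libraries: both lines, KG-1 and MOLM-14, after 96 h with either DMSO or ASLAN003. ASLAN003 is an inhibitor of DHODH, an enzyme of pyrimidine synthesis. No dose is given by the labels. They state triplicates without saying whether cultures were separate, so errors and p-values cover only the spread among these libraries, possibly a technical one. Each line is a single leukaemia grown in culture. No untreated group was analysed here.

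Estimated depth was 18060000 to 18800000 fragments per library. The myeloid genes PTPRC, SPI1, CD33 and MPO were detected in all 12 libraries, and FLT3 and HOXA9 were higher in every MOLM-14 library than in any KG-1 library. CD34, a progenitor marker, was at most 0.17 FPKM in any library. Of the markers of other cell types, HBB, CD3E, MS4A1, KRT19 and COL1A2 were not listed in the table, and CD3D reached 0.22 FPKM. EPCAM lay at 1.19 to 2.49 FPKM in KG-1 and at 0 in MOLM-14, KRT8 at 14.9 to 28.4 in KG-1 and 1.8 to 4.71 in MOLM-14, and COL1A1 at 6.3 to 10.7 and 0.49 to 5.01. The part of these markers in the results below was not tested. The 3 MOLM-14 ASLAN003 libraries were more spread than the others: their median SD over genes was 0.27 on the log2 scale, against 0.13 to 0.18 in the other groups. Replicate 1 stood apart from replicates 2 and 3, at 36.2 on the second principal component (16.3% of the variance) against 14.6 and 9.37. Results on MOLM-14 that rest on it are therefore also given without it.

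RefSeq promoter windows (GRCh38.p14) were found for TERT, NME7 and C17orf75, 3 of the 7 genes. They are shown because the genes were lower together in MOLM-14. Only bases before the start that lie in no annotated exon of the gene itself are printed, 5′ to 3′ on the gene's strand. Exons of other genes were left in. BLZF1, on the opposite strand, begins 0.003 kb beyond NME7, so the NME7 stretch runs into that gene. The stretches are chr5:1295070-1295318 for TERT, chr1:169367968-169368047 for NME7 and chr17:32342270-32342423 for C17orf75, all on the minus strand. Capitals mark, on either strand, the E-box (spelled CACGTG), the GC-box (spelled GGGCGG) and the core of the ETS motif (spelled CCGGAA).
TERT: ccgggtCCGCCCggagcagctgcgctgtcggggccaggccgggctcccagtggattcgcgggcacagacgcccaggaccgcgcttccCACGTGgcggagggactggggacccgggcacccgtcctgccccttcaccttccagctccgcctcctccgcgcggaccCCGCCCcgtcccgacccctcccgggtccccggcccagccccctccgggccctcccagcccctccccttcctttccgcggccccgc
NME7: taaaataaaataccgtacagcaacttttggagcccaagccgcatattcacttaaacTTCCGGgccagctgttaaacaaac
C17orf75: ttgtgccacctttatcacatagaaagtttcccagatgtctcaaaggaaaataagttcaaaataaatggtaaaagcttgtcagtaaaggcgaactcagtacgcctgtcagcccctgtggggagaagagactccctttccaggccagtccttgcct

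The TERT stretch holds 1 E-box starting at position -163, counted from the RefSeq start, and GC-boxes at -244 and -86. An E-box of this spelling was present in 6.34% of 35116 windows of the same length, and a GC-box in 42.6%. GC content over the 250 bases before the start was 78.8% for TERT, above 95.4% of all windows, 54.8% for NME7 and 55.2% for C17orf75, against a median of 58%. NME7 had an ETS core at -194, a spelling found in 14.5% of windows, and more matches in bases not printed because they overlap an annotated exon: GC-boxes at -109, -44 and -12, a CCAAT box at -95 and another ETS core at -157. CCAAT was present in 32% of windows. The C17orf75 window lies inside the gene's GENCODE span, upstream of an internal RefSeq start, and held none of the searched motifs, which also included TATAAA (10.7% of windows) and TGACGTCA (1.65%), each on both strands. No motif was common to all 3 windows. These matches describe letters and show no binding.

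**Figure D1:**
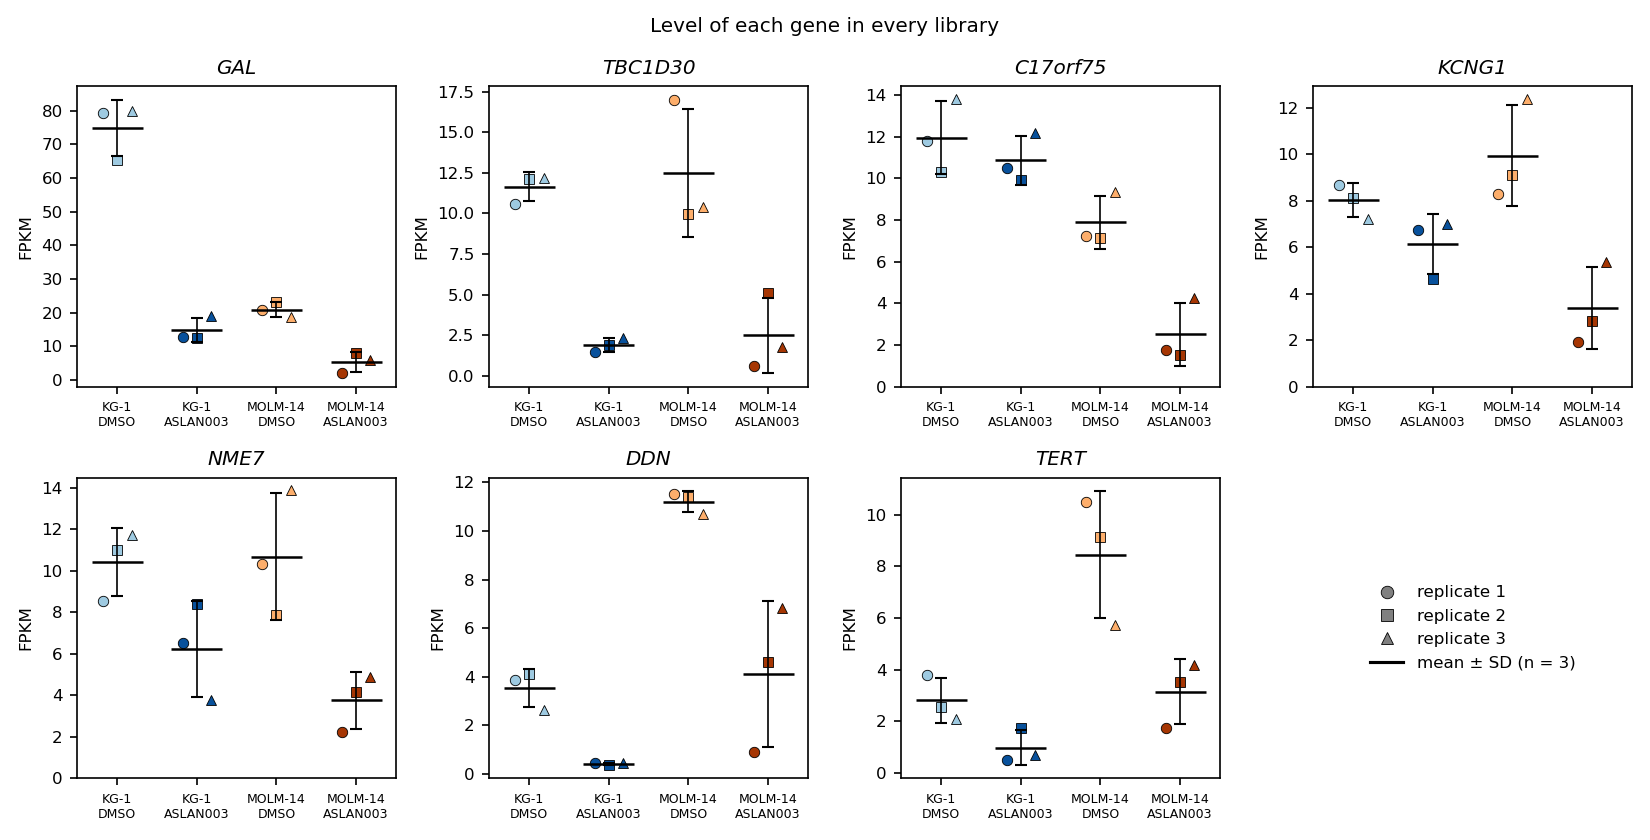
FPKM (linear axis, 1 panel per gene) in each of the 12 libraries; symbols are replicates and the line and bar are the mean ± SD (n = 3). In MOLM-14 the ASLAN003 libraries lie below the DMSO libraries for all 7 genes; in KG-1 they overlap for C17orf75.

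GAL, on chromosome 11 (68683779 to 68691175, plus strand, GRCh38, 6 exons in its coding transcript), had the highest FPKM of the 7 genes in KG-1. KG-1 DMSO libraries held 79.4, 65.2 and 80 FPKM, and ASLAN003 libraries 12.9, 12.5 and 18.9. In MOLM-14 the DMSO libraries held 20.8, 23.2 and 18.7 FPKM and the ASLAN003 libraries 2.07, 8.01 and 5.9. Every treated library was thus below every control library of its line, and the lowest, MOLM-14 replicate 1, rested on about 24 fragments. The ASLAN003 mean was 19.7% of the DMSO mean in KG-1 and 25.5% in MOLM-14. On the log2(FPKM + 1) scale the change was -2.28 ± 0.31 (SE) in KG-1 and -1.92 ± 0.31 in MOLM-14, or -1.47 ± 0.19 in MOLM-14 without replicate 1. Each SE uses 1 spread per gene shared by all 4 groups, so with all 12 libraries it is equal in both lines. It is therefore not the precision of either line alone. In bulk RNA, fewer cells with a transcript and less transcript per cell cannot be told apart, here and for the genes below.

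Between the lines in DMSO, GAL was lower in MOLM-14 than in KG-1: 20.9 ± 2.26 FPKM (SD, n = 3) against 74.9 ± 8.42, a log2 difference of -1.79 ± 0.31 (SE; limma, adjusted p = 0.000374). This comparison does not use the treatment contrast, but its DMSO libraries were also the controls of the contrasts that chose the genes. The order of group means was KG-1 controls, MOLM-14 controls, treated KG-1 and treated MOLM-14. The middle pair overlapped, the lowest MOLM-14 control holding 18.7 FPKM and the highest treated KG-1 library 18.9.

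Of the galanin system's 5 other genes, GALR2 was the only 1 in the table. Its KG-1 means were 6.08 FPKM with the solvent and 11.5 with the drug, a rise of 0.80 ± 0.20 on the log2 scale (adjusted p = 0.00832, and 0.197 with a pseudocount of 0.1). In MOLM-14 it was at 0.05 and 0.08 FPKM. The ligand was thus lower and this receptor higher in treated KG-1. Of 6 tested genes of prohormone processing, the enzymes that cut and amidate peptide precursors, 2 rose and 1 fell in KG-1 and 1 rose in MOLM-14, where 33.7% and 13% of all tested genes were called, meaning an adjusted p under 0.05. Their median log2 changes were 0.12 and 0.15, against 0.05 and 0.08 over all genes. CPD, a carboxypeptidase, rose by 1.44 ± 0.13 in KG-1 (adjusted p = 6.49e-06) and by 0.49 ± 0.13 in MOLM-14 (adjusted p = 0.0287). FURIN, a precursor convertase, rose by 1.06 ± 0.16 in KG-1 (adjusted p = 0.000296). PAM, an enzyme that amidates peptides, changed by -0.60 ± 0.16 in KG-1 (adjusted p = 0.0117). The PAM call was lost without KG-1 DMSO replicate 1 or 2 or ASLAN003 replicate 1 (adjusted p from 0.0502 to 0.056). The CPD call in MOLM-14 was lost without DMSO replicate 1 or 2 or ASLAN003 replicate 1 or 3 (adjusted p from 0.0596 to 0.103), which left none of the 6 called.

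TERT, on chromosome 5 (1253147 to 1295069, minus strand, 16 exons), was expressed at low levels. In KG-1, DMSO libraries held 3.77, 2.54 and 2.1 FPKM and ASLAN003 libraries 0.49, 1.73 and 0.7, the lowest on about 34 fragments. In MOLM-14, DMSO libraries held 10.5, 9.15 and 5.71 FPKM and ASLAN003 libraries 1.74, 3.53 and 4.16. Groups did not overlap in either line, although the gap in KG-1 was narrow, from 1.73 to 2.1 FPKM. After ASLAN003 the mean was 34.7% of the DMSO mean in KG-1 and 37.2% in MOLM-14. The log2 change was -0.97 ± 0.31 in KG-1 (-1.57 with a pseudocount of 0.1) and -1.20 ± 0.31 in MOLM-14 (-0.93 ± 0.30 without replicate 1).

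In DMSO, TERT was higher in MOLM-14 than in KG-1, at 8.44 ± 2.45 FPKM against 2.8 ± 0.87 (SD, n = 3), a log2 difference of 1.30 ± 0.31 (SE; adjusted p = 0.00386). Treated MOLM-14, at 3.14 ± 1.26 FPKM, came next in the order of means, just above the KG-1 controls, and their libraries overlapped. Treated KG-1 was lowest.

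Of 15 tested genes of the telomerase holoenzyme and its assembly, 7 fell and 1 rose in KG-1, where 14.3% of all genes fell, and 1 fell and 1 rose in MOLM-14, where 3.33% fell. Their median log2 changes were -0.40 in KG-1 and -0.12 in MOLM-14; the latter was 0.07 without MOLM-14 ASLAN003 replicate 1. In KG-1, NHP2, a protein of the H/ACA particle that holds telomerase RNA, fell from 195.1 to 104.3 FPKM (log2 change -0.90 ± 0.10, adjusted p = 2.34e-05). RUVBL2, an ATPase of telomerase assembly, fell from 241.3 to 130.8 FPKM (-0.88 ± 0.13, adjusted p = 0.0002). TEP1, a telomerase-associated protein, rose in both lines, by 0.78 ± 0.19 (adjusted p = 0.00693) and 0.83 ± 0.19 (adjusted p = 0.0139). DKC1, dyskerin, changed by -0.50 ± 0.18 in KG-1 (adjusted p = 0.0482), from 137.5 to 97.3 FPKM. The DKC1 call was lost on leaving out any of 10 of the 12 libraries, all but MOLM-14 ASLAN003 replicates 1 and 2 (adjusted p from 0.0548 to 0.152). The KG-1 count of 7 became 4 without any DMSO replicate or ASLAN003 replicate 1, and 3 without ASLAN003 replicate 2. The 1 gene that fell in MOLM-14, RUVBL1 (-0.52 ± 0.16, adjusted p = 0.0484), was named after its values were seen, and the count there was 0 without any of 9 libraries. The RNA component TERC was not listed in the table.

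Of 10 tested genes of shelterin, the CST complex and the telomere helicase, which cap and copy telomere ends, 1 rose and 1 fell in KG-1 and 2 rose in MOLM-14. For this list and those below, the shares over all genes were 19.4% higher and 14.3% lower in KG-1. In MOLM-14 they were 9.69% and 3.33%. TINF2, a shelterin bridge protein, rose by 0.57 ± 0.14 in KG-1 (adjusted p = 0.00653) and 0.56 ± 0.14 in MOLM-14 (adjusted p = 0.0193). OBFC1, a CST subunit, rose by 0.70 ± 0.15 in MOLM-14 (adjusted p = 0.0107). POT1, which binds single-stranded telomere DNA, changed by -0.49 ± 0.16 in KG-1 (adjusted p = 0.0324). The TINF2 call in MOLM-14 was lost without DMSO replicate 3 or ASLAN003 replicate 1 (adjusted p 0.0732 and 0.0535), and with median centring or quantile normalization (0.062 and 0.0637). The POT1 call was lost without KG-1 DMSO replicate 2 or 3 or ASLAN003 replicate 1 or 3 (adjusted p from 0.11 to 0.116).

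Among 14 transcription factors described at the TERT promoter, 5 rose and 3 fell in KG-1, and 1 rose in MOLM-14. MYC, which binds E-boxes such as the one in capitals above, fell in KG-1 from 148.2 to 59.7 FPKM (-1.31 ± 0.24, adjusted p = 0.000965). Its MOLM-14 means were 299.3 FPKM with the solvent and 220.9 with the drug (-0.51 ± 0.24, adjusted p = 0.177), and without ASLAN003 replicate 1 the change was -0.17 ± 0.15 (adjusted p = 0.511). MXD1, which competes with MYC for its partner MAX, rose in KG-1 by 1.30 ± 0.20 (adjusted p = 0.000271) and in MOLM-14 by 0.95 ± 0.20 (adjusted p = 0.00807). ETS1, a factor of the ETS family, rose in KG-1 by 2.08 ± 0.15 (adjusted p = 1.28e-06). It did not pass in MOLM-14 (0.28 ± 0.15, adjusted p = 0.269). The KG-1 count of 5 was 3 without DMSO replicate 1 or 2 or ASLAN003 replicate 2, and 3 with median centring.

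NME7, on chromosome 1 (169132531 to 169367967, minus strand, 12 exons), held 8.56, 11 and 11.7 FPKM in KG-1 controls and 6.51, 8.39 and 3.79 in treated KG-1. The gap between the groups there was small, from 8.39 to 8.56. In MOLM-14, DMSO libraries held 10.3, 7.84 and 13.9 FPKM and ASLAN003 libraries 2.21, 4.17 and 4.87, with no overlap. ATP1B1, which overlaps NME7 on the opposite strand, had group means of 0.73 to 1.41 FPKM. The treated mean was 59.9% of the DMSO mean in KG-1 and 35.1% in MOLM-14. Log2 changes were -0.70 ± 0.29 and -1.31 ± 0.29, and -1.05 ± 0.28 in MOLM-14 without replicate 1. The KG-1 change was -0.43 without KG-1 ASLAN003 replicate 3. In DMSO the lines did not differ beyond their spread (10.4 ± 1.63 and 10.7 ± 3.06 FPKM; log2 difference 0.01 ± 0.29, adjusted p = 0.977).

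Of 7 other tested genes of the NME family, 3 fell and 2 rose in KG-1 and 1 rose in MOLM-14. NME1 fell in KG-1 from 241.8 to 119.4 FPKM (-1.02 ± 0.14, adjusted p = 0.000104) and NME4, the mitochondrial member, from 178.3 to 85.7 (-1.06 ± 0.14, adjusted p = 7.09e-05). NME1 shares sequence with its neighbour NME2, so the split of reads between them is uncertain. NME8, a thioredoxin-domain member, rose in KG-1 from 0.4 to 7.56 FPKM (2.54 ± 0.27, adjusted p = 1.58e-05) and was at 0 and 0.09 FPKM in MOLM-14. Of 12 genes of the gamma-tubulin ring complex, 2 fell and 1 rose in KG-1 and 1 fell in MOLM-14. MZT2A fell in KG-1 by 1.23 ± 0.12 (adjusted p = 8.98e-06) and in MOLM-14 by 0.89 ± 0.12 (adjusted p = 0.000769). MZT2B fell in KG-1 by 0.78 ± 0.17 (adjusted p = 0.00336). These near-identical copies encode small adaptor proteins of the complex and can exchange reads. TUBG2, a gamma-tubulin, changed by 0.87 ± 0.24 in KG-1 (adjusted p = 0.0149), a call lost without DMSO replicate 1 or ASLAN003 replicate 2 (adjusted p 0.0624 and 0.0513).

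TBC1D30, on chromosome 12 (64780516 to 64881032, plus strand, 13 exons), held 10.6, 12.1 and 12.2 FPKM in KG-1 controls and 1.45, 1.92 and 2.34 in treated KG-1. In MOLM-14, DMSO libraries held 17, 9.97 and 10.4 FPKM and ASLAN003 libraries 0.58, 5.08 and 1.8. The treated KG-1 libraries were close together and the treated MOLM-14 libraries far apart, but neither overlapped its controls. The ASLAN003 mean was 16.4% of the DMSO mean in KG-1 and 20% in MOLM-14. The log2 change was -2.13 ± 0.38 in both lines, and -1.67 ± 0.31 in MOLM-14 without replicate 1. Ranked from the lowest log2 change of 13353 genes, TBC1D30 was 25 in KG-1 and 22 in MOLM-14, and GAL 18 and 28. In DMSO the lines did not differ beyond their spread (11.6 ± 0.9 and 12.5 ± 3.91 FPKM; log2 difference 0.06 ± 0.38, adjusted p = 0.911).

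Of 34 other tested genes with a TBC domain, the catalytic fold of RAB GTPase-activating proteins, 8 rose and 1 fell in KG-1, and 6 rose and none fell in MOLM-14. Over all genes 19.4% and 9.69% rose. Their median log2 changes were 0.23 and 0.15. TBC1D8 rose in both lines, by 0.93 ± 0.17 (adjusted p = 0.00086) and 0.87 ± 0.17 (adjusted p = 0.00527). TBC1D10C rose in KG-1 from 10.1 to 36.8 FPKM (1.78 ± 0.22, adjusted p = 7.01e-05), and TBC1D2 in MOLM-14 from 2.34 to 5.65 (0.99 ± 0.20, adjusted p = 0.0073). The KG-1 count of 8 was 3 without DMSO replicate 1, 5 without DMSO replicate 3 or ASLAN003 replicate 1 or 2, and 3 with median centring. The MOLM-14 count stayed at 6 without ASLAN003 replicate 1 and was 4 under each of the 3 scalings tried. RAB8A, the GTPase that TBC1D30 acts on, was at 72 and 75.5 FPKM in KG-1 (log2 change 0.07 ± 0.11, adjusted p = 0.697) and at 106.9 and 121.8 in MOLM-14 (0.18 ± 0.11, adjusted p = 0.323). Of 5 tested genes of RAB8, its relatives and exchange factors, 2 rose in each line. RAB13 rose in KG-1 by 0.86 ± 0.14 (adjusted p = 0.000444). RAB10 in KG-1 (0.37 ± 0.12, adjusted p = 0.0281), RAB13 in MOLM-14 (0.53 ± 0.14, adjusted p = 0.025) and the exchange factor RAB3IP in MOLM-14 (0.96 ± 0.27, adjusted p = 0.0363) passed less firmly. RAB10 lost its call without KG-1 DMSO replicate 1 or 3 or ASLAN003 replicate 2 or 3 (adjusted p from 0.054 to 0.117). RAB13 lost its MOLM-14 call without any DMSO replicate or ASLAN003 replicate 1 or 2 (0.0525 to 0.0861), and RAB3IP without any MOLM-14 DMSO replicate, MOLM-14 ASLAN003 replicate 1 or 3, KG-1 DMSO replicate 3 or KG-1 ASLAN003 replicate 1 or 3 (0.05 to 0.108). The MOLM-14 count was 0 without any DMSO replicate or ASLAN003 replicate 1.

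C17orf75, on chromosome 17 (32324565 to 32350023, minus strand, 10 exons), differed most between the lines in its change among the 7 genes. KG-1 libraries held 11.8, 10.3 and 13.8 FPKM in DMSO and 10.5, 9.95 and 12.2 in ASLAN003, which overlapped. MOLM-14 libraries held 7.22, 7.12 and 9.35 FPKM in DMSO and 1.78, 1.52 and 4.25 in ASLAN003, with no overlap. Treated libraries averaged 90.9% of the DMSO mean in KG-1 and 31.9% in MOLM-14. Log2 changes were -0.12 ± 0.25 (-0.02 without KG-1 DMSO replicate 3) and -1.41 ± 0.25, a difference between the lines of 1.29 ± 0.35; over all genes, 9.94% were called for such a difference. Without MOLM-14 ASLAN003 replicate 1 the MOLM-14 change was -1.28 ± 0.26 and the difference 1.16 ± 0.35. Since both changes served to choose the gene, this difference is not a test. In DMSO, all MOLM-14 libraries were below all KG-1 libraries, but the log2 difference of -0.54 ± 0.25 did not pass (adjusted p = 0.0842). It passed with weighted libraries (0.0135) and without MOLM-14 ASLAN003 replicate 3 (0.0145).

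Of 13 tested genes of the WDR11 complex and trans-Golgi tethering, 5 rose and 1 fell in KG-1 and 3 rose in MOLM-14, with median log2 changes of 0.29 and 0.22. The partner WDR11 was at 14.6 and 18.1 FPKM in KG-1 (0.29 ± 0.18, adjusted p = 0.244) and at 20.8 and 23.1 in MOLM-14 (0.16 ± 0.18, adjusted p = 0.62, and 0.29 ± 0.18, adjusted p = 0.337, without ASLAN003 replicate 1). FAM91A1, the other partner, changed by 0.56 ± 0.16 in KG-1 (adjusted p = 0.0157) and by -0.20 ± 0.16 in MOLM-14 (adjusted p = 0.452). Neither partner was called lower in MOLM-14, where C17orf75 was lower, although the FAM91A1 estimate there was negative. AP1S2, a subunit of the AP-1 clathrin adaptor, rose in both lines, by 1.10 ± 0.18 (adjusted p = 0.000399) and 0.92 ± 0.18 (adjusted p = 0.00543). AP1S3, a related subunit, changed by 1.01 ± 0.26 in MOLM-14 (adjusted p = 0.0252), and the golgin GOLGA1 by 0.98 ± 0.27 (adjusted p = 0.0297). FAM91A1 lost its KG-1 call without DMSO replicate 1 or 2 or ASLAN003 replicate 1 or 2 (adjusted p from 0.052 to 0.0749). AP1S3 lost its call without MOLM-14 DMSO replicate 3 or ASLAN003 replicate 1 or 2 (0.0596 to 0.0848), and GOLGA1 without any MOLM-14 DMSO replicate (0.0709 to 0.0764). The KG-1 count of 5 was 2 without DMSO replicate 1 or ASLAN003 replicate 2 and 3 without ASLAN003 replicate 1, and the MOLM-14 count of 3 was 1 without DMSO replicate 3.

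KCNG1, on chromosome 20 (51003656 to 51023129, minus strand, 3 exons), held 8.7, 8.13 and 7.24 FPKM in KG-1 controls and 6.74, 4.65 and 7.01 in treated KG-1, groups that were adjacent but did not overlap. In MOLM-14, DMSO libraries held 8.3, 9.13 and 12.4 FPKM and ASLAN003 libraries 1.93, 2.85 and 5.35. The ASLAN003 mean was 76.4% of the DMSO mean in KG-1 and 33.9% in MOLM-14. Log2 changes were -0.35 ± 0.26 and -1.38 ± 0.26, and -1.13 ± 0.24 in MOLM-14 without replicate 1. The KG-1 change was -0.19 without KG-1 ASLAN003 replicate 2. In DMSO the lines did not differ beyond their spread (8.02 ± 0.74 and 9.95 ± 2.19 FPKM; log2 difference 0.27 ± 0.26, adjusted p = 0.422).

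Of 12 other tested Kv channel subunits, 4 rose and 5 fell in KG-1, where 19.4% and 14.3% of all genes did. In MOLM-14, 3 rose and none fell, against 9.69% and 3.33%. The list's median log2 changes were -0.07 in KG-1 and 0.34 in MOLM-14. KCNE3, an accessory subunit, rose by 1.54 ± 0.17 in KG-1 (adjusted p = 2.86e-05) and 0.83 ± 0.17 in MOLM-14 (adjusted p = 0.00841). KCNQ1, a subunit that KCNE3 can join, rose by 1.09 ± 0.19 (adjusted p = 0.00066) and 1.33 ± 0.19 (adjusted p = 0.00102). The KG-1 count of 5 that fell was 3 without DMSO replicate 1 or 2 or ASLAN003 replicate 3, 2 without ASLAN003 replicate 2, and 1 with a filter at 5 FPKM.

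DDN, on chromosome 12 (48995149 to 48999309, minus strand, 2 exons), held 3.85, 4.13 and 2.64 FPKM in KG-1 controls and 0.45, 0.38 and 0.43 in treated KG-1, the lowest on about 25 fragments. In MOLM-14, DMSO libraries held 11.5, 11.4 and 10.7 FPKM and ASLAN003 libraries 0.89, 4.61 and 6.84. The MOLM-14 controls lay within 1 FPKM of each other while the treated libraries spread widely, with no overlap. The ASLAN003 mean was 11.9% of the DMSO mean in KG-1, the lowest share of the 7 genes in that line, and 36.8% in MOLM-14. The log2 change was -1.66 ± 0.39 in KG-1 (-2.79 with a pseudocount of 0.1) and -1.48 ± 0.39 in MOLM-14. Without MOLM-14 replicate 1 the latter was -0.88 ± 0.20.

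In DMSO, DDN was higher in MOLM-14, at 11.2 ± 0.45 FPKM against 3.54 ± 0.79 (SD, n = 3), a log2 difference of 1.44 ± 0.39 (SE; adjusted p = 0.00805). It overlaps an antisense gene, DDN-AS1 (listed as RP11-386G11.5), whose means were 3.71 and 1.61 FPKM in KG-1 (log2 change -0.86 ± 0.41, adjusted p = 0.125) and 1.29 and 1.78 in MOLM-14 (0.07 ± 0.41, adjusted p = 0.948, and 0.65 ± 0.27, adjusted p = 0.145, without ASLAN003 replicate 1). The kit was stranded, but no source says whether the counting used the strand, so shared reads cannot be told apart. Of 4 tested dendrin partners and slit diaphragm genes, 1 fell in KG-1 and 1 rose in MOLM-14. WWC1, the scaffold KIBRA, fell in KG-1 from 10 to 5.62 FPKM (-0.74 ± 0.15, adjusted p = 0.00227). ACTN4, an actin crosslinker found in most cells, rose in MOLM-14 by 0.47 ± 0.10 (adjusted p = 0.00927, and 0.0526 with median centring).

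**Figure D2:**
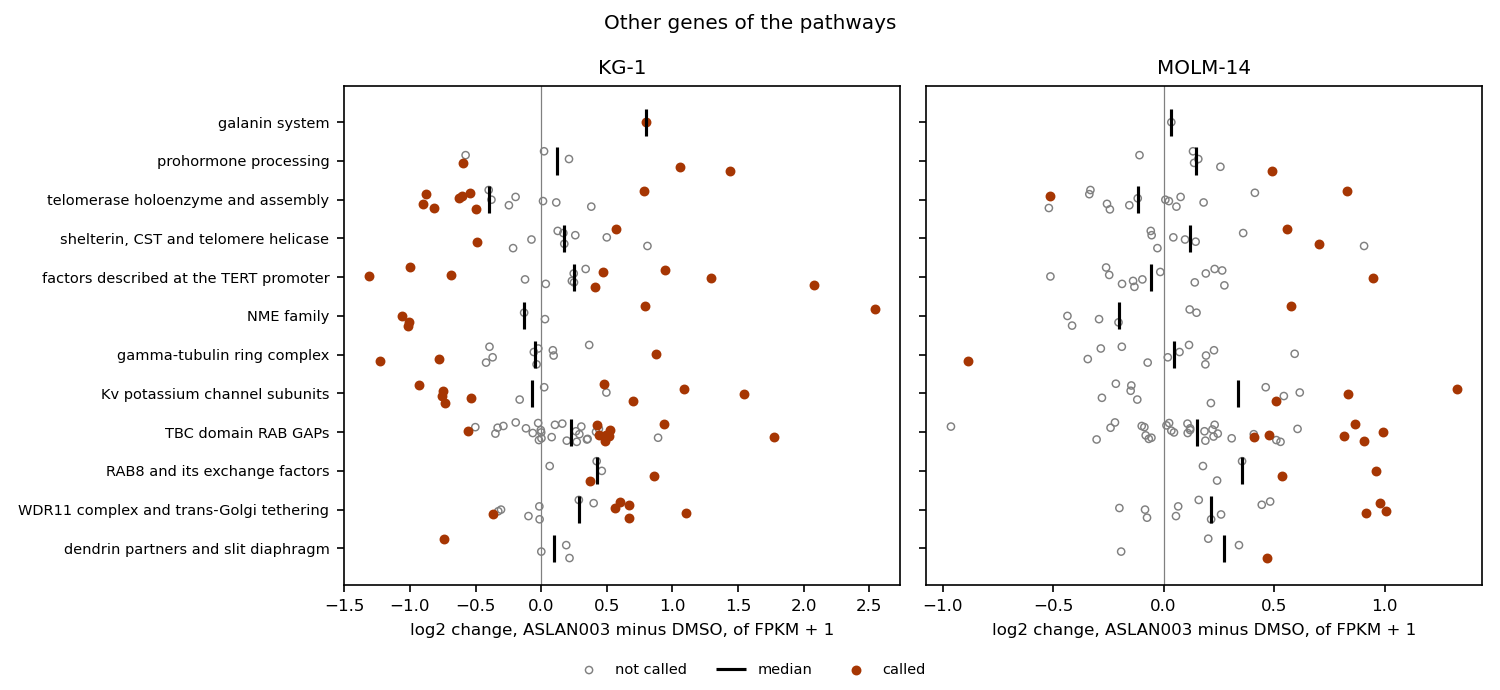
Log2 change after ASLAN003 (x axis, FPKM + 1) of each tested gene of the 12 lists in KG-1 and MOLM-14; filled points passed the test, open points did not, and black bars are list medians. The telomerase list has the lowest median in KG-1 (-0.40), and the TBC domain list has 8 genes that rose and 1 that fell there.

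Side by side, the 7 genes covered a wide range in KG-1 and a narrow one in MOLM-14. Their log2 changes ran from -2.28 to -0.12 in KG-1, with a median of -0.97, and from -2.13 to -1.20 in MOLM-14, with a median of -1.41. Over all 13353 genes the medians were 0.05 and 0.08. In KG-1, 4 of the 7 (GAL, TBC1D30, DDN and TERT) were called lower and 6 did not overlap, against 14.3% and 24.5% of all genes. In MOLM-14 all 7 were called lower and did not overlap, against 3.33% and 8.17%. The MOLM-14 call was lost for TERT without DMSO replicate 1 or 2, with a pseudocount of 0.1 and with weighted libraries, for NME7 with weighted libraries, and for DDN without any DMSO replicate, and with MOLM-14 fitted alone it was kept for GAL and lost for the other 6. The KG-1 call of TERT was lost without DMSO replicate 1 or 2 or ASLAN003 replicate 1 or 3, and NME7 was called there without KG-1 ASLAN003 replicate 2 or MOLM-14 ASLAN003 replicate 1, with median centring, quantile normalization or weighted libraries, and with KG-1 fitted alone. These treatment counts, the ranges above and the ranks below follow from how the genes were chosen and support nothing. All 7 were picked as lower in MOLM-14 and only some as lower in KG-1 too. By rank from the lowest log2 change, the 7 genes lay between 22 and 86 in MOLM-14, and in KG-1 NME7 was at 1126, KCNG1 at 2871 and C17orf75 at 4840.

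MOLM-14 ASLAN003 replicate 1 was the lowest of its group for 6 of the 7 genes, C17orf75 being the exception, and for 35% of all tested genes. Among the 444 genes called lower in MOLM-14 it was the lowest for 66.9%. Replicate 3 was the highest for 5 of the 7, against 26.3% of all genes. Leaving replicate 1 out gave smaller MOLM-14 changes for all 7 genes, and for DDN the change moved most, from -1.48 to -0.88. Without it TERT was no longer among the genes called lower, and the other 6 were. A single library thus carried much of the size of the DDN change.

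**Figure D3:**
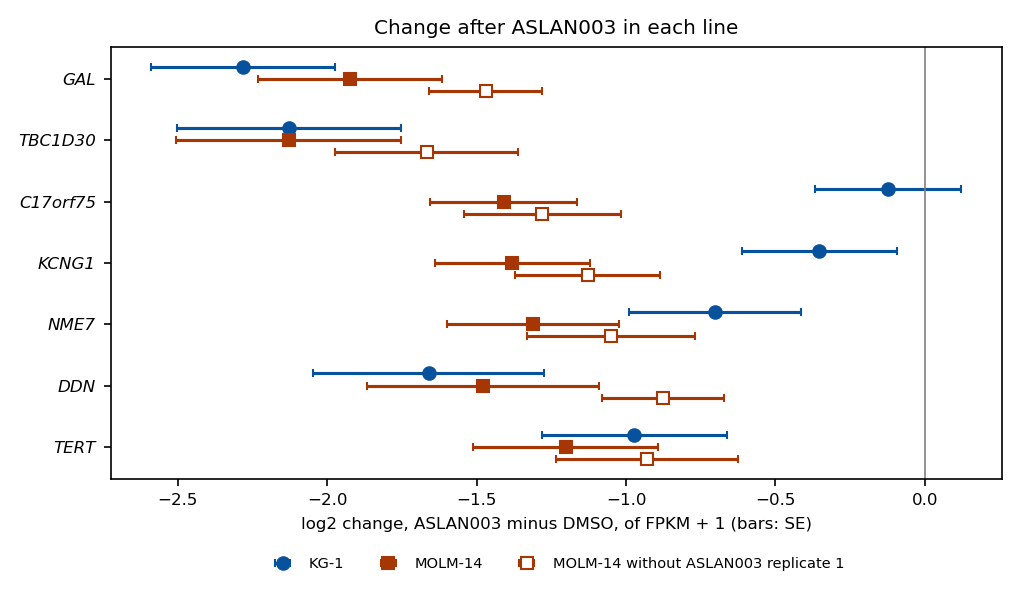
Log2 change after ASLAN003 (x axis, FPKM + 1; bars are SE) in KG-1, in MOLM-14 and in MOLM-14 without ASLAN003 replicate 1. The MOLM-14 values lie between -2.13 and -1.20, and C17orf75 and KCNG1 in KG-1 lie nearest to 0.

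The line difference in DMSO passed for 3 of the 7 genes, GAL (lower in MOLM-14), DDN and TERT (higher), against 49.2% of all genes, and 4 did not overlap (C17orf75 as well), against 63.3%. These calls were kept under all 21 alternatives. The adjusted p ranged from 1.52e-06 to 0.00249 for GAL, 3.64e-05 to 0.0365 for DDN and 0.000416 to 0.0204 for TERT. The 7 genes thus had no common direction between the lines with the solvent. TBC1D30, KCNG1 and NME7 had their highest means in MOLM-14 controls, KG-1 controls came next and overlapped them, and the treated groups of both lines overlapped at the bottom of the order. For C17orf75 both KG-1 groups came first and overlapped, above MOLM-14 controls and, lowest, treated MOLM-14, with no overlap between these. For DDN the order was MOLM-14 controls, treated MOLM-14, KG-1 controls and treated KG-1, of which only the middle pair overlapped. After ASLAN003 the libraries of the lines overlapped for TBC1D30, KCNG1 and NME7 and did not for GAL, C17orf75, DDN and TERT, against 55.8% of all genes without overlap.

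Over the 12 libraries, the 7 genes also differed in pattern. Likeness was measured as the root mean square difference of log2(FPKM + 1) after each gene's mean was removed, so that 0 would be an identical pattern. KCNG1 and NME7 were the most alike pair (0.38), followed by DDN and TERT (0.48) and C17orf75 and KCNG1 (0.51). GAL and DDN were farthest apart (1.62), one being higher in KG-1 and the other in MOLM-14. The libraries are shared by all these comparisons and low genes carry more counting noise, so the values are descriptions.

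In the search for like genes, those with clone, small RNA or LINC names were left out. Among the other tested genes, SNHG5 (0.35), a small nucleolar RNA host gene, was most like GAL. Next came STC2 (0.40), the secreted stanniocalcin 2, and BNIP3 (0.55), a mitophagy protein. SNHG5 went from 1261 to 205.9 FPKM in KG-1 and from 292.6 to 125.9 in MOLM-14. The genes nearest to TBC1D30 were CBS (0.56), an enzyme of the transsulphuration pathway, FBL (0.59), the nucleolar methyltransferase fibrillarin, and the long noncoding RNA DANCR (0.64). Those nearest to DDN were GAS5 (0.37), another small nucleolar RNA host gene, the pseudogene HNRNPA1P7 (0.43) and MYC (0.44). MYC and DDN shared a higher level in MOLM-14 DMSO, 299.3 against 148.2 FPKM for MYC. For TERT they were RPL6P27 (0.32), ZNF395 (0.36) and PTMAP2 (0.36).

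C17orf75 was most like ZNF114 (0.34), MCTS2P (0.34) and the linker histone gene H1F0 (0.35). KCNG1 was most like RRP15 (0.29), a factor of ribosome biogenesis, the transcription factor gene RFX3 (0.30) and NUS1P1 (0.30). NME7 was most like RPA3 (0.32), a subunit of replication protein A, MAGOHB (0.33), a core protein of the exon junction complex, and GARS (0.34), glycyl-tRNA synthetase. HNRNPA1P7, RPL6P27, PTMAP2, NUS1P1 and MCTS2P are copies of other genes, and their reads may belong to those genes.

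Of the 14 nearest tested coding neighbours, 1 on either side of each gene, none was called lower in either line, where 14.3% (KG-1) and 3.33% (MOLM-14) of all genes were, and 2 were called higher in each, against 19.4% and 9.69%. The difference from these shares was not tested. The neighbours had median log2 changes of 0.17 in KG-1 and 0.08 in MOLM-14. MTL5, next to GAL, changed by 0.71 ± 0.18 in MOLM-14 (adjusted p = 0.0189), and NFATC2, next to KCNG1, by 0.54 ± 0.19 in KG-1 (adjusted p = 0.0426). CLPTM1L, next to TERT, was at 114.6 and 122.3 FPKM in KG-1 and 120.6 and 109.9 in MOLM-14 and did not pass in either. MTL5 lost its call without MOLM-14 DMSO replicate 2 or 3 or ASLAN003 replicate 1 (adjusted p from 0.0555 to 0.0729). NFATC2 lost it without any KG-1 DMSO replicate, KG-1 ASLAN003 replicate 1 or 2 or MOLM-14 DMSO replicate 2 (0.0526 to 0.137).

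**Figure D4:**
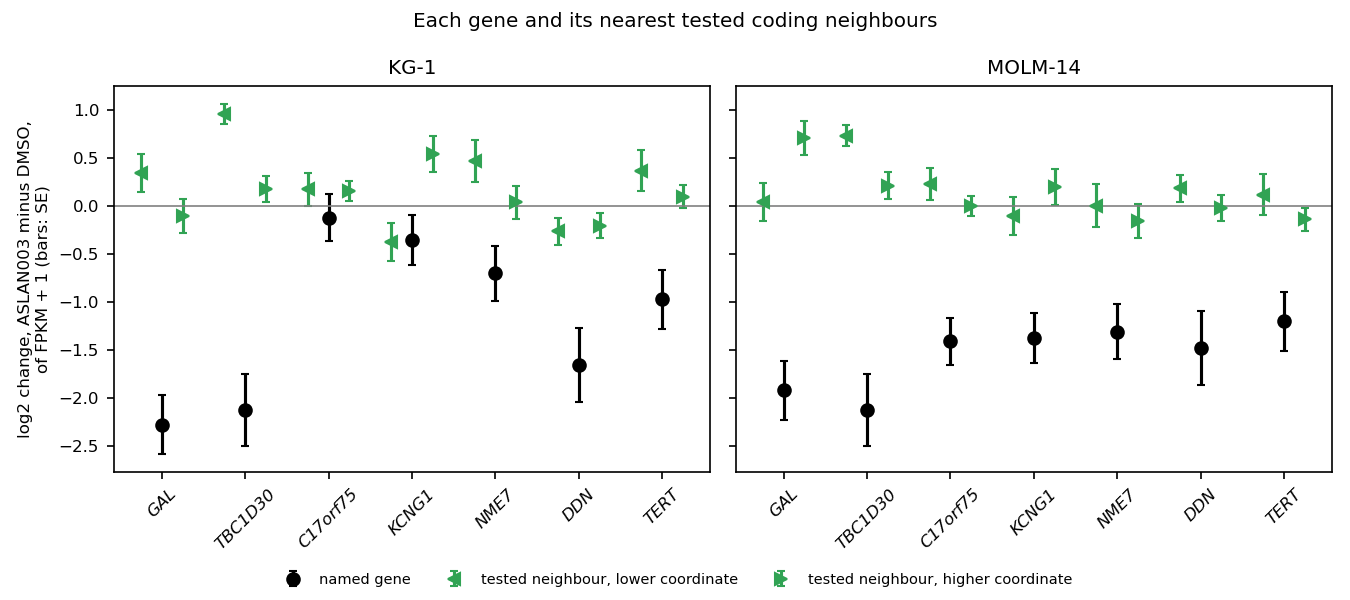
Log2 change after ASLAN003 (y axis, FPKM + 1; bars are SE) of the 7 genes (black) and their nearest tested coding neighbours at the lower and higher coordinate (green triangles) in KG-1 and MOLM-14. In MOLM-14 every black point lies below its neighbours, which lie at -0.16 or above. The 7 genes were chosen as lower there, so this order follows from the choice.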

How the data were processed

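Total RNA of 12 samples, 3 per group, went into stranded libraries, per the labels' protocols. The submitters' processing notes name RSEM 1.2.25, STAR 2.4.2a and bcl2fastq 2.17.1.14. The authors deposited 1 log2 value per gene and library; from its values the scale is log2(FPKM + 1), rounded to 0.01 FPKM, and FPKM is relative to the whole library. No counts were used; depth was estimated from the steps of low FPKM values, of which 73.3% to 82% per library lay within 0.15 fragments of a whole number.

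Groups came from the labels. Means of the 4 groups were modelled on the log2(FPKM + 1) scale, pseudocount 1, by limma 3.58.1 in R 4.3.3 (eBayes with trend and robust estimation), over the 13353 genes that reached 1 FPKM in 3 or more libraries. P-values are two-sided, adjusted over all these genes by the Benjamini-Hochberg method, and a gene was called at an adjusted p under 0.05. Each gene had 1 estimate of spread over all 4 groups, so its SE with all 12 libraries was equal in both lines. A log2 change understates that of low genes. The fit was tested on simulated data. These gave each gene 1 spread in all groups, so they did not cover the wider spread of the MOLM-14 ASLAN003 libraries. Positions are from GENCODE 29 (GRCh38).

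The members, the pathway lists and the tests were chosen with earlier results of these data known. Named were all 7 members, up to 3 called genes of each list with the largest change, MYC, WDR11, FAM91A1, GALR2, RAB8A and DKC1, the nearest tested neighbours and the 3 genes most like each member; a few genes under this rule are not reported here. Alternatives were another pseudocount, other filters, 3 scalings, each line alone, no trend, weighted libraries, a replicate block and leaving out each library.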

Additional observations from a re-analysis of the deposited data

Results flagged for a closer look

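Of 133 tested genes of the pathway lists, the change after ASLAN003 differed between the lines for 15 by limma's test of the difference (KG-1 change minus MOLM-14 change, log2; adjusted over all genes, of which 9.94% passed). The 9 of them that the rule for named genes covers are given here. NME8 differed by 2.43 ± 0.38 (SE, adjusted p = 0.00233), having risen in KG-1 from a low level and staying near 0 in MOLM-14. ETS1 differed by 1.80 ± 0.22 (0.000509), TBC1D10C by 1.55 ± 0.32 (0.00984) and CPD by 0.95 ± 0.19 (0.00802), each with the larger rise in KG-1. NHP2 differed by -0.64 ± 0.14 (0.013) and WWC1 by -0.94 ± 0.21 (0.0157), both lower in KG-1. FURIN differed by 0.80 ± 0.23 (0.045), FAM91A1 by 0.76 ± 0.22 (0.0496) and AP1S3 by -1.33 ± 0.37 (0.0401). These last 3 lost the call on leaving out 1 library, FURIN for every library but MOLM-14 ASLAN003 replicate 1 (adjusted p up to 0.115), FAM91A1 for DMSO replicates 1 and 2 and ASLAN003 replicates 1 and 2 of KG-1 and DMSO and ASLAN003 replicates 2 and 3 of MOLM-14 (up to 0.125), and AP1S3 for every KG-1 DMSO replicate, KG-1 ASLAN003 replicates 1 and 2, MOLM-14 DMSO replicate 3 and MOLM-14 ASLAN003 replicate 2 (up to 0.103).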

How the results depend on the processing

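All 7 members had negative changes in MOLM-14 and in KG-1 under each of 22 alternatives. They were chosen as lower after ASLAN003 in these same libraries, so this sign supports nothing. For C17orf75 in KG-1 the change reached -0.02 and was called in no alternative. Counts over all genes depended on the setting. With weighted libraries, genes called lower and higher went from 1909 and 2585 to 3013 and 4001 in KG-1, from 444 and 1294 to 237 and 716 in MOLM-14, and from 653 and 674 to 1106 and 1120 for the difference of the changes. In MOLM-14 they were 921 and 728 with median centring, 66 and 280 with each line fitted alone, and 752 higher with quantile normalization. Of 18 MOLM-14 list and neighbour calls named, 15 did not pass with the line fitted alone. With KG-1 fitted alone, 0 of its 31 such calls were lost, and 2650 genes were lower and 3458 higher. The reason for this contrast was not tested. Median centring or quantile normalization ended the MOLM-14 calls of CPD, TINF2, RAB13, RAB3IP, GOLGA1, AP1S3, MTL5 and ACTN4 and the KG-1 calls of RAB10 and NFATC2 (adjusted p from 0.052 to 0.15), and median centring brought the prohormone list's medians to -0.004 and -0.002. Leaving out 1 library gave 1355 to 2287 lower and 1961 to 2965 higher in KG-1, 248 to 641 and 810 to 1678 in MOLM-14, and 333 to 1181 and 404 to 1176 for the difference; the highest of the last 2 came without MOLM-14 ASLAN003 replicate 1. Median centring, quantile normalization and rescaling shifted the median change over all genes by -0.12, -0.10 and -0.05 in KG-1 and by -0.15, -0.10 and -0.04 in MOLM-14, and the share of calls that were higher from 57.5% to 42.7%, 46.1% and 50.8% in KG-1 and from 74.5% to 44.1%, 57.1% and 65.1% in MOLM-14. The cause was not tested.

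Deviations of same-numbered libraries from their group means were little correlated, from -0.09 to 0.10. These values cannot show whether same-numbered samples were set up together. With a replicate block, 1836 genes were lower and 2528 higher in KG-1 and 400 and 1186 in MOLM-14. Under it the calls of DKC1 in KG-1, RAB3IP in MOLM-14 and FAM91A1 for the difference were lost (adjusted p 0.0671, 0.0603 and 0.0703), the DMSO line difference of C17orf75 passed (0.0295), and no other named list, neighbour or member line difference changed its call.

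The precision of DDN and TERT in KG-1 ASLAN003 and of GAL in MOLM-14 ASLAN003 is limited by few fragments, and 3 libraries per group limit every error given.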
